A study of Mus musculus with 12 samples.

Results

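The 8 genes described here encode a liver lipid transporter, *Mfsd2a*, and 7 genes of the fasting and PPAR-alpha program: *Fgf21*, *Ppara*, *Cpt1a*, *Ehhadh*, *Vnn1*, *Acot1* and *Acot2*. They were picked by symbol out of 22252 gene entries in liver, 22273 in gastrocnemius and 22252 in gonadal white adipose tissue (WAT), and all 8 symbols were present in each tissue. The choice was made with their measured values in these libraries known, above all those of *Mfsd2a* in liver, so their values are a description and carry no test.

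RNA-seq was carried out on liver, gastrocnemius and gonadal WAT of male mice that carried a floxed glucocorticoid receptor gene, *Nr3c1*, on a C57BL/6J background. GRf/f mice had no Cre, whereas in GRmKO mice *Acta1*-Cre, active in myofibers, deleted exon 3 of the gene. From 8 weeks of age the mice drank 1% ethanol (vehicle), or 1% ethanol with 100 µg/mL corticosterone (CORT, the main glucocorticoid of rodents), for 4 weeks. Each of the 12 libraries was made from 1 pool of RNA from 3 mice, with 1 library for each tissue, genotype and treatment. There was therefore no replicate, no difference below has a replicate check, and the intervals given cover counting error only.

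PPAR-alpha is a nuclear receptor that binds fatty acids and, together with RXR, switches on genes of fatty acid oxidation in the liver, most strongly during fasting. Insulin, which is high after feeding, opposes much of this program, and glucocorticoids are among the hormones that rise in fasting. *Mfsd2a* encodes a membrane transporter of lysophosphatidylcholine, a carrier of long-chain fatty acids such as docosahexaenoic acid, and its transcript is known to rise in the fasted liver.

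Levels are given as counts-per-million of the library total (CPM), and the libraries held 19394572 to 20940660 counts. The floor, which is 3 counts, lay at 0.143 to 0.155 CPM. A change is the log2 ratio after adding 0.5 CPM to both libraries, and the words rose and fell are kept for changes of at least 2-fold, a log2 change of 1. In gastrocnemius, *Nr3c1* in the GRmKO libraries was at 41.2% of its GRf/f level under vehicle and 39.2% under CORT, while it was at 105% and 110% in liver and at 102% and 81.5% in gonadal WAT. The hepatocyte markers (9 of 10 listed genes in the files, all detected) summed to 93751 to 150867 CPM in liver, the 8 myofiber markers to 92785 to 125996 CPM in gastrocnemius and the 8 adipocyte markers to 26269 to 32657 CPM in gonadal WAT, so each tissue carried its defining markers. In bulk tissue, fewer cells of a type and less RNA per cell cannot be told apart.

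The promoters shown here are those of the genes whose liver transcripts moved most, *Mfsd2a* and *Fgf21*, and of the neighbouring pair *Acot1* and *Acot2*, which moved together. The 250 bases before the start were read from RefSeq (build GRCm38.p6), where 7 of the 8 genes had an entry. Capitals mark a match to the amino acid response element, the site of the stress factor ATF4.
Mfsd2a, chr4:122961189-122961438, minus strand: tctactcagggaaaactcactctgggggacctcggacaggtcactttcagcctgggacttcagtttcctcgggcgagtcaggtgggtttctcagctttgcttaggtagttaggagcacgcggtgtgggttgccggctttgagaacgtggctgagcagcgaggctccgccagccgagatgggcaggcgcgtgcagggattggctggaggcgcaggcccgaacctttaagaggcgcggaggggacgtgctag
Fgf21, chr7:45615491-45615740, minus strand: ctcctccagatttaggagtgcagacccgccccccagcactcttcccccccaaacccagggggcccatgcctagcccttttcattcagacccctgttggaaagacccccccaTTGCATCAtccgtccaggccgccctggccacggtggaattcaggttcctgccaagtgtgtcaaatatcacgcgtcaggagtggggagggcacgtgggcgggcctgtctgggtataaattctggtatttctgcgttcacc
Acot1, chr12:84009252-84009501, plus strand: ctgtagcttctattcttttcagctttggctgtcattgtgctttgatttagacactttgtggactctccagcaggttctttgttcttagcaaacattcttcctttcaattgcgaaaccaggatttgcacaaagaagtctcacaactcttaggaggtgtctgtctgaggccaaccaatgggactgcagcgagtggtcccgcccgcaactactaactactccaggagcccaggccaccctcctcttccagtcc
Acot2, chr12:83987611-83987860, plus strand: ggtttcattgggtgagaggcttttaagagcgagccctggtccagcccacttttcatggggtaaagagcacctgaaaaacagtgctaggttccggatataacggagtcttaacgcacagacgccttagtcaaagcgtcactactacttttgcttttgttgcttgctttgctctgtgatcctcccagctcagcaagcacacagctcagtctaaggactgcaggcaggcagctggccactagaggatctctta

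Motifs of 5 kinds were searched on both strands of each promoter window, the 250 bases above with the 50 that follow. The direct repeat of AGGTCA with a spacer of 1 base, the site of PPAR and RXR, with up to 2 mismatches, was in 0 of the 7 windows and in 3.87% of 32544 promoters. The glucocorticoid response element, AGAACA and TGTTCT separated by 3 bases with up to 2 mismatches, was in 0 of 7 and in 1.83% of all promoters. The FoxO site GTAAACA was in 0 of 7 and in 3.66% of all promoters, and the cAMP response element TGACGTCA with up to 1 mismatch was in 1 of 7, that of *Acot2* at bases 24 to 31 after the start, and in 12.3% of all promoters. The amino acid response element TGATGNAA was in 1 of 7, that of *Fgf21* at bases -139 to -132, where it reads TTGCATCA on the gene's strand, and in 3.91% of all promoters. The motifs overlapped nowhere in these windows, and a missing match says only that these letters are not in the window, which leaves out distant sites. Although *Acot1* and *Acot2* lie side by side, their 250-base stretches were identical at 127 of 272 aligned positions (46.7%).

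To examine the liver response, CORT was first compared with vehicle in GRf/f mice. Of the 8 genes, 3 fell (*Mfsd2a*, *Cpt1a* and *Ppara*), 3 rose (*Fgf21*, *Acot1* and *Acot2*) and 2 (*Ehhadh* and *Vnn1*) did neither, with a median log2 change of -0.15. Over all 12485 liver genes above 0 in the 4 libraries, 11.6% were past 2-fold in this comparison and the median was 0.00. In GRmKO mice, 3 of the 8 rose with CORT (*Fgf21*, *Acot1* and *Acot2*) and none fell, with a median of 0.51, against 5.61% past 2-fold and a median of 0.05 among all genes. Because the genes were chosen on these comparisons, nothing is read from the distance between their counts and those shares.

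**Figure D1:**
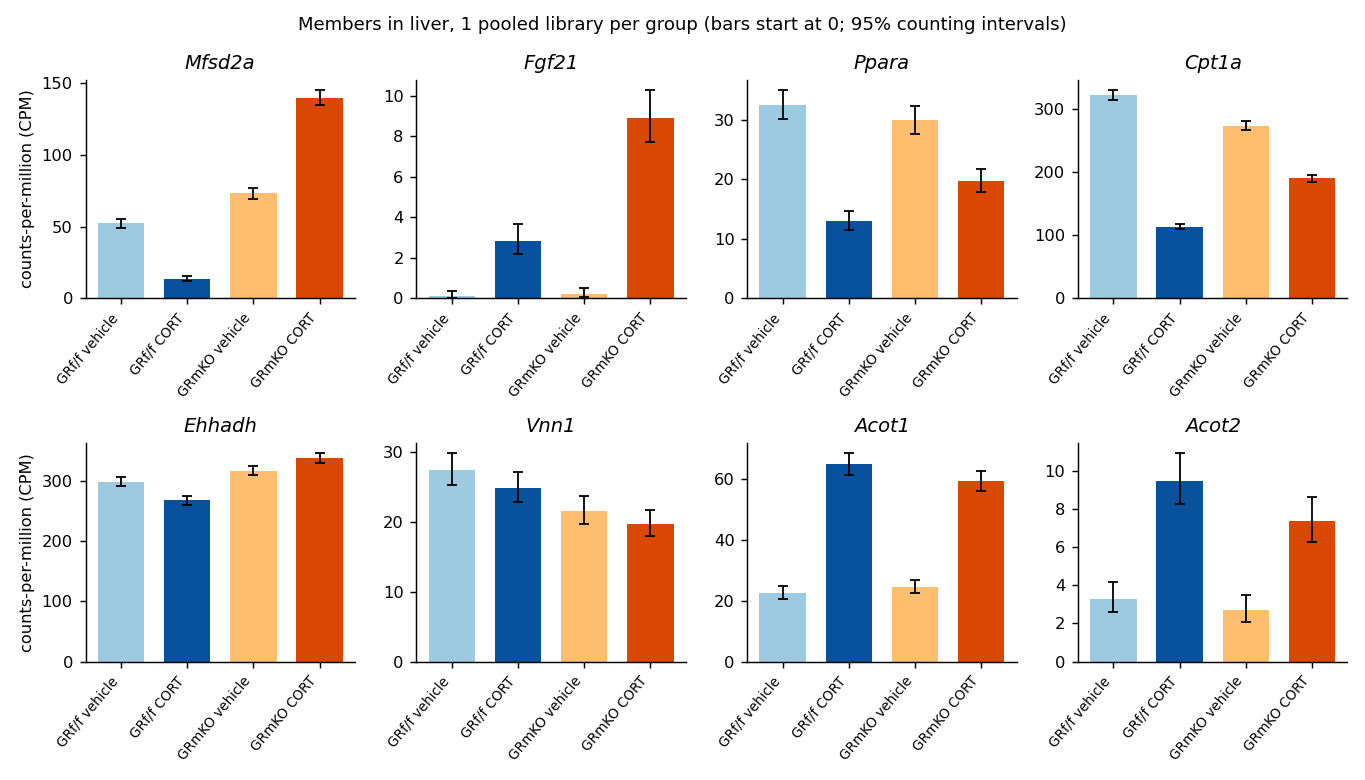
Level of each of the 8 genes in liver, in CPM on a linear axis from 0, with 1 bar for each pooled library and 95% Wilson counting intervals as error bars. *Mfsd2a* is lowest under CORT in GRf/f mice (13.6 CPM) and highest under CORT in GRmKO mice (140.2 CPM), *Fgf21* is high only in the CORT libraries, and *Acot1* and *Acot2* share a pattern.

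*Mfsd2a* (ENSMUST00000030408, chr4:122946850-122961188, minus strand, 14 exons, GRCm38) was measured in liver at 52.3 CPM in vehicle-treated GRf/f mice, 13.6 CPM in CORT-treated GRf/f mice, 73.2 CPM in vehicle-treated GRmKO mice and 140.2 CPM in CORT-treated GRmKO mice. None of the 4 counting intervals overlapped, and the lowest and the highest level were both found under CORT. With CORT, *Mfsd2a* in GRf/f mice fell to 0.261 of its vehicle level (95% counting interval 0.228 to 0.298), a log2 change of -1.90 that ranked 133 among the falls of 12485 genes. In GRmKO mice its CORT level was 1.91 times its vehicle level (1.80 to 2.04), a log2 change of 0.93 that lay just short of 2-fold.

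The CORT change of *Mfsd2a* was thus of opposite sign in the 2 genotypes. The GRmKO change exceeded the GRf/f change by 2.83 on the log2 scale (counting interval 2.62 to 3.04), which with 1 library per group could not be tested against the spread between mice. The genotypes differed less under vehicle, where the GRmKO level was 1.40 times the GRf/f level (1.30 to 1.52), than under CORT, where it was 10.3 times as high (9.09 to 11.7). The CORT difference, a log2 change of 3.31, ranked 3 among the rises of all 12485 genes. Among all liver genes, 8 fell past 2-fold with CORT in GRf/f mice and rose past 2-fold in GRmKO mice, and 13 did the reverse. *Mfsd2a* is not among the 8, since its GRmKO change stopped short of 2-fold.

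*Fgf21* (ENSMUST00000033099, chr7:45613886-45615490, minus strand, 3 exons) encodes a hormone that the liver releases in fasting and under amino acid or endoplasmic reticulum stress. It held 2 counts in the vehicle library of GRf/f mice and 4 in that of GRmKO mice, which are 0.0955 and 0.193 CPM. Under CORT it held 58 counts (2.84 CPM) in GRf/f mice and 185 counts (8.93 CPM) in GRmKO mice. Both CORT libraries lay above both vehicle libraries, whose intervals overlapped.

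*Fgf21* rose 29.7 times with CORT in GRf/f mice (counting interval 7.85 to 251) and 46.3 times in GRmKO mice (17.7 to 171), intervals as wide as the few vehicle counts allow. On the scale with 0.5 CPM added, which pulls such a low gene toward 0, the log2 changes were 2.49 and 3.77, and the latter ranked 13 among the rises of all genes. Under CORT the GRmKO level was 3.15 times the GRf/f level (2.33 to 4.30). The difference between the CORT changes in the 2 genotypes was 1.28 on the log2 scale with 0.5 CPM added. Its counting interval, -1.20 to 3.77, takes its width from the counts without that addition, so it is rough for so low a gene. A difference between the genotypes' CORT changes was not detectable at this depth.

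Under vehicle, 0 of the 8 genes were past 2-fold between genotypes in liver, where 2.3% of all genes were. Under CORT, 2 of the 8, *Mfsd2a* and *Fgf21*, were higher past 2-fold in GRmKO than in GRf/f mice, and 4.72% of all genes were past 2-fold in either direction. The medians of the 8 genes were -0.02 under vehicle and 0.46 under CORT, against 0.03 and 0.07 over all genes.

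**Figure D2:**
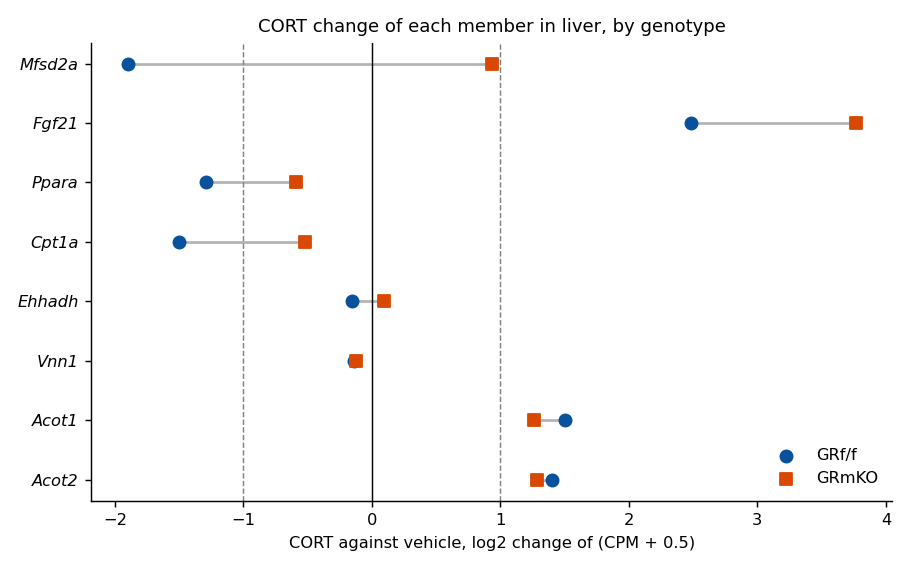
CORT change of each gene in liver on the log2 scale of CPM + 0.5, with GRf/f mice as circles and GRmKO mice as squares, a grey line joining them, and dashed lines at 2-fold. *Mfsd2a* lies at -1.90 in GRf/f and 0.93 in GRmKO mice, *Cpt1a* and *Ppara* lie below 0 in both, and *Acot1* and *Acot2* lie above 1 in both.

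*Ppara* (ENSMUST00000109422, chr15:85734983-85802819, plus strand) encodes the receptor itself. Its liver level was 32.4 CPM in vehicle-treated and 12.96 CPM in CORT-treated GRf/f mice, and 29.9 CPM and 19.7 CPM in the corresponding GRmKO mice. The 2 vehicle intervals overlapped, and both CORT libraries lay below them. *Ppara* fell in GRf/f mice, to 0.399 of vehicle (0.345 to 0.461), and stood at 0.658 of vehicle in GRmKO mice (0.580 to 0.747). The difference between these changes was 0.70 on the log2 scale (0.43 to 0.97).

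*Cpt1a* (ENSMUST00000025835, chr19:3322334-3385733, plus strand) encodes the enzyme that commits long-chain fatty acids to mitochondrial oxidation. It was measured at 321 CPM and 113 CPM in vehicle- and CORT-treated GRf/f mice and at 273 CPM and 189 CPM in the GRmKO mice, 4 levels with no overlap of their intervals. *Cpt1a* fell in GRf/f mice to 0.353 of vehicle (0.336 to 0.370), and its GRmKO level under CORT was 0.695 of vehicle (0.667 to 0.724). The GRmKO level was lower than that of GRf/f mice under vehicle, by a log2 change of -0.24, and higher under CORT, by 0.74.

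*Ppara* and *Cpt1a* shared an order of levels, in which GRf/f vehicle was highest and GRf/f CORT lowest, and in both genes the CORT change was smaller in GRmKO mice. Unlike *Mfsd2a*, neither gene had a CORT level in GRmKO mice above its vehicle level.

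*Ehhadh* (ENSMUST00000023559, chr16:21761287-21787807, minus strand) encodes the bifunctional enzyme of peroxisomal beta-oxidation and is a classical PPAR-alpha target. Its liver levels were 299, 268, 317 and 338 CPM, in the order GRf/f vehicle, GRf/f CORT, GRmKO vehicle and GRmKO CORT. At this depth the 4 intervals did not overlap, but the CORT changes were small, -0.16 on the log2 scale in GRf/f mice and 0.09 in GRmKO mice. *Vnn1* (ENSMUST00000041416, chr10:23894688-23905343, plus strand), the pantetheinase that releases cysteamine and vitamin B5, was measured at 27.4, 24.8, 21.6 and 19.7 CPM in the same order. Within each genotype the intervals of vehicle and CORT overlapped, and the CORT changes were -0.14 and -0.13, with counting intervals that included 0. *Vnn1* was lower in GRmKO than in GRf/f mice under both treatments, by log2 changes of -0.34 under vehicle (-0.53 to -0.17) and -0.32 under CORT (-0.52 to -0.14).

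*Acot1* and *Acot2* encode thioesterases that cleave acyl-CoA, in the cytosol and in mitochondria respectively. *Acot1* (ENSMUST00000168120, chr12:84009490-84018371, plus strand) was measured at 22.6 CPM and 64.8 CPM in vehicle- and CORT-treated GRf/f liver, and at 24.4 CPM and 59.3 CPM in GRmKO liver. Both CORT libraries were above both vehicle libraries, and within each treatment the intervals of the genotypes overlapped. *Acot1* rose 2.87 times in GRf/f mice (2.59 to 3.20) and 2.43 times in GRmKO mice (2.19 to 2.70).

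*Acot2* (ENSMUST00000021649, chr12:83987861-83993873, plus strand) was measured at 3.28, 9.47, 2.73 and 7.37 CPM in the order used for *Ehhadh*. It rose 2.89 times in GRf/f mice (2.17 to 3.84) and 2.70 times in GRmKO mice (1.99 to 3.77), again with both CORT libraries above both vehicle libraries. The lower bound in GRmKO mice lay just under 2-fold. The differences between the genotypes' CORT changes, -0.24 for *Acot1* (-0.45 to -0.02) and -0.11 for *Acot2* (-0.71 to 0.48) on the log2 scale, were small against the changes themselves.

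The paralogs share sequence, so their values are uncertain. Of the 31-base words of the retained transcript, 28.8% of those in *Acot1* also occur in *Acot2*, and 40.1% occur in some other gene. For *Acot2* the corresponding shares are 29.8% and 37.8%, and for the other 6 genes no more than 0.169%. *Acot1* made up 87.3% to 89.9% of the summed counts of the pair in the 4 liver libraries, but 3.52% to 8.23% in gastrocnemius and 2.05% to 4.50% in gonadal WAT. With *Acot1* as the more abundant partner in liver, how far reads of *Acot1* set the liver value of *Acot2* was not tested.

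Per kilobase of transcript, the mean over the 4 liver libraries was highest for *Ehhadh* at 103 CPM per kb, followed by *Cpt1a* at 51.9, *Mfsd2a* at 32.5, *Acot1* at 18.8, *Vnn1* at 9.69, *Ppara* at 6.96, *Fgf21* at 3.17 and *Acot2* at 2.60 CPM per kb. Within libraries this order moved with treatment. *Mfsd2a* ranged from 6.34 to 65.2 CPM per kb in liver, whereas *Ehhadh* ranged only from 90.0 to 113.

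The liver libraries also differed in their cell type markers. The summed hepatocyte markers were lowest in vehicle-treated GRf/f mice (93751 CPM) and highest in CORT-treated GRmKO mice (150867 CPM), with albumin, *Alb*, accounting for 49853 and 111499 CPM of these sums. Without *Alb* the other 8 markers summed to 43898 and 37264 CPM in vehicle- and CORT-treated GRf/f mice. In GRmKO mice they summed to 45701 and 39368 CPM, so that this sum was lower with CORT in each genotype. With *Alb* but without *Cyp2e1* the corresponding sums were 85013 and 116959 CPM and 108260 and 147009 CPM, higher with CORT. The members went both ways. Besides *Alb*, *Serpina1c* and *Apoh* were higher with CORT in both genotypes, whereas *Cyp2e1*, *Apoa1*, *Ahsg* and *Fgb* were lower. *Apob* was higher only in GRf/f mice and *Ttr* only in GRmKO mice. The 6 macrophage markers, all detected, summed to 149 CPM and 48.0 CPM in vehicle- and CORT-treated GRf/f mice and to 114 CPM and 69.8 CPM in GRmKO mice. Among them only *Marco* was higher with CORT, at 3.26 and 6.88 CPM in GRf/f and 2.32 and 5.14 CPM in GRmKO mice. The 5 endothelial markers, also all detected, summed to 52.0 CPM in CORT-treated GRf/f mice and to 73.0 to 79.4 CPM in the other 3 libraries. With CORT in GRf/f mice *Cdh5*, *Kdr* and *Stab2* were lower. *Pecam1* was higher, from 2.42 to 6.29 CPM, as was *Tek*, from 4.72 to 6.29 CPM. The 3 red blood cell markers summed to 681, 308, 452 and 732 CPM in the order used for *Ehhadh*. This sum was lowest and highest in the same libraries as *Mfsd2a*, but *Alas2* was lower with CORT in both genotypes. The 4 cholangiocyte markers summed to 4.301, 19.04, 9.745 and 15.9 CPM in that order, with *Sox9* at 2.01, 17.03, 5.14 and 10.37 CPM. The other cholangiocyte markers went both ways with CORT. The part of these differences in the changes of the 8 genes was not tested.

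Next, the rest of the PPAR-alpha program was examined in liver, by 5 lists that together hold 54 genes, of which 52 were above 0 in all 4 libraries. With CORT in GRf/f mice 8 of the 52 rose and 8 fell, with a median log2 change of 0.06, and in GRmKO mice 4 rose and 5 fell, with a median of 0.04. Between genotypes, 2 genes were higher past 2-fold in GRmKO mice under vehicle, and 2 were higher and 1 lower under CORT. With CORT the share past 2-fold was 30.8% in GRf/f mice and 17.3% in GRmKO mice, beside 11.6% and 5.61% of all liver genes, and the medians of all genes were 0.00 and 0.05. Between genotypes the shares were 3.85% under vehicle and 5.77% under CORT, beside 2.3% and 4.72%. The lists overlap with the program from which the 8 genes were picked, so these shares are a description. The same shares of all liver genes apply to each list below. Of the 2 genes left out for a 0, *Ucp3* was at 0 throughout. *Slc27a1*, a fatty acid transport protein, was at 5.16 and 4.42 CPM in vehicle- and CORT-treated GRf/f mice. Its entry was listed at 0 in both GRmKO libraries, and the counts above leave it out. Each entry bears 1 transcript identifier. Isolated zeros occurred elsewhere too, as for *Pdgfra* in liver at 0, 4.98, 2.23 and 5.82 CPM in the order used for *Ehhadh*. Whether *Slc27a1* as a whole gene differed between genotypes was not tested.

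The 14 genes of peroxisomal beta-oxidation were split with CORT in GRf/f mice, with 3 up and 3 down, while in GRmKO mice 2 rose and none fell. *Crat*, carnitine acetyltransferase, rose from 14.0 to 51.2 CPM in GRf/f mice and from 18.1 to 56.7 CPM in GRmKO mice. *Acot3*, a peroxisomal thioesterase of the *Acot1* cluster, rose from 3.24 to 10.2 CPM and from 10.02 to 26.7 CPM, so that it was higher past 2-fold in GRmKO mice under either treatment. *Acot4* was at 23.7 and 68.7 CPM in GRf/f mice and at 49.4 and 67.6 CPM in GRmKO mice, a rise with CORT in GRf/f mice and a higher vehicle level, past 2-fold, in GRmKO mice. How reads were divided among *Acot1*, *Acot2* and these relatives was not checked beyond the shared words given above.

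None of the 15 genes of mitochondrial beta-oxidation was past 2-fold in any of the 4 liver comparisons, and their median log2 change with CORT was 0.11 in GRf/f and 0.05 in GRmKO mice. *Cpt1a*, the entry step to this pathway, hence fell in GRf/f mice without a 2-fold fall of any of these enzymes. Of its relatives, *Cpt1b*, the muscle form, was listed at 0 in all 4 liver libraries and *Cpt1c* was at 0.0488 to 0.240 CPM.

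Among the 6 genes of microsomal omega-oxidation, 2 rose and 2 fell in GRf/f mice, and 1 rose and 2 fell in GRmKO mice. *Cyp4a14*, a fatty acid omega-hydroxylase and a sensitive PPAR-alpha target, rose from 131 to 1869 CPM in GRf/f and from 253 to 2052 CPM in GRmKO mice. *Cyp4a10* rose from 471 to 1396 CPM in GRf/f mice and stood at 584 and 900 CPM in GRmKO mice. The male-biased *Cyp4a12a* fell from 689 to 210 CPM and from 502 to 198 CPM. These *Cyp4a* genes are close copies of each other, and how reads were divided among them was not checked.

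In the ketone body list of 5 genes, *Bdh1*, which interconverts the ketone bodies, fell from 117 to 23.8 CPM in GRf/f mice and from 110 to 43.6 CPM in GRmKO mice. *Slc16a1*, which exports them, rose from 17.7 to 52.3 CPM in GRf/f mice and was at 26.3 and 32.9 CPM in GRmKO mice. These were the only changes past 2-fold among the 5. Among 12 genes of fatty acid uptake and binding and other PPAR-alpha targets, 2 rose and 2 fell in GRf/f mice, and 1 rose and 2 fell in GRmKO mice. *Cd36*, a fatty acid transporter, rose from 17.9 to 74.7 CPM in GRf/f and from 19.8 to 46.5 CPM in GRmKO mice. *Fabp1*, the liver fatty acid binding protein, fell from 2757 to 755 CPM and from 2624 to 1155 CPM, and *Ucp2* fell in GRf/f mice from 22.8 to 9.32 CPM.

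**Figure D3:**
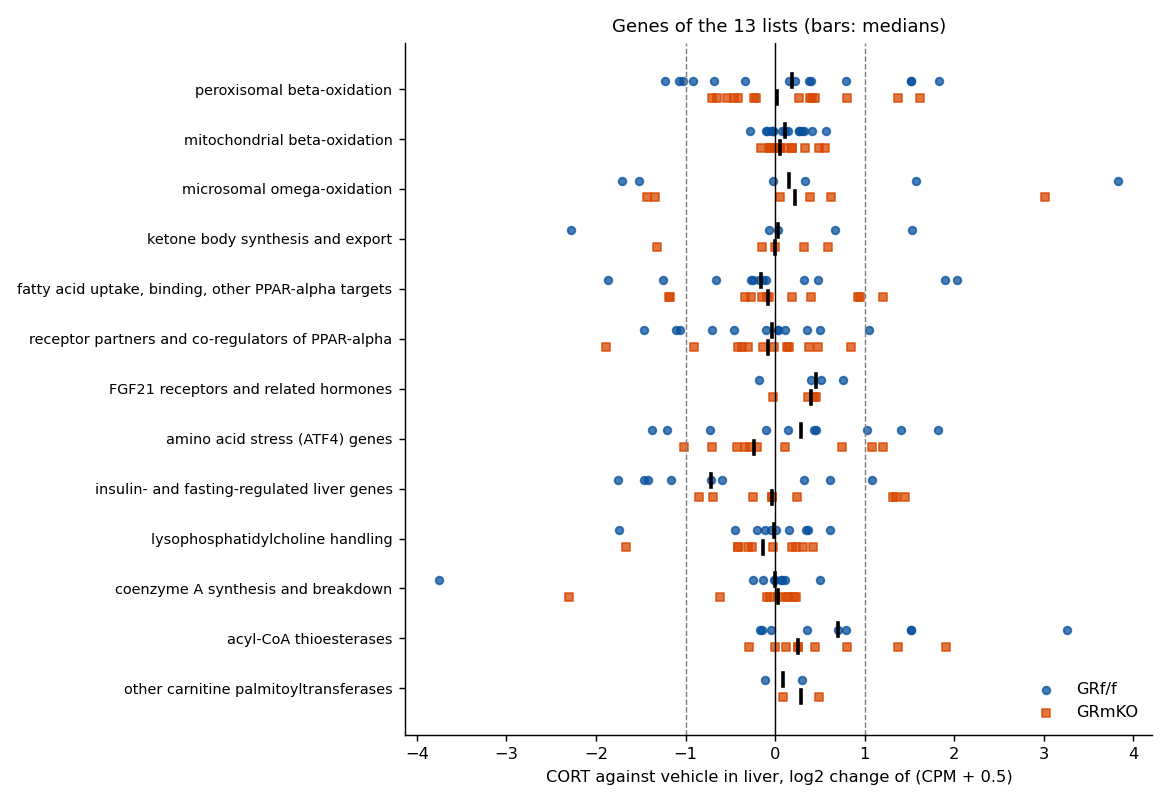
CORT change in liver, on the log2 scale of CPM + 0.5, of the genes of 13 lists that were above 0 in all 4 libraries, with GRf/f as circles, GRmKO as squares, black bars at the medians and dashed lines at 2-fold. Mitochondrial beta-oxidation lies wholly within 2-fold, and the insulin- and fasting-regulated genes have a median of -0.72 in GRf/f and -0.03 in GRmKO mice.

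Of the 12 receptor partners and co-regulators of PPAR-alpha, 1 rose and 3 fell with CORT in GRf/f mice, and 1 fell in GRmKO mice. *Lpin1*, a co-activator and phosphatidate phosphatase, fell from 228 to 109 CPM in GRf/f mice and was at 254 and 196 CPM in GRmKO mice. *Sirt1*, a deacetylase, fell from 7.89 to 2.54 CPM and from 8.59 to 1.96 CPM, and *Nrip1*, a co-repressor, rose in GRf/f mice from 5.70 to 12.3 CPM. Of the 8 receptors and relatives of FGF21, the 4 above 0 in all 4 libraries were within 2-fold in every comparison. *Fgfr1*, a receptor of FGF21, was left out because it was listed at 0 in CORT-treated GRmKO mice. It was at 4.54 and 1.14 CPM in vehicle- and CORT-treated GRf/f mice and at 5.29 CPM in vehicle-treated GRmKO mice, so that its low CORT levels decided the exclusion.

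Since *Fgf21* is also a target of ATF4, the 10 genes of the amino acid stress list were examined. In GRf/f mice 3 rose and 2 fell with CORT, and in GRmKO mice 2 rose and 1 fell. *Atf5* rose from 124 to 254 CPM and from 101 to 232 CPM, *Trib3* fell from 8.17 to 2.83 CPM and from 8.38 to 3.89 CPM, and *Ddit3* rose in GRf/f mice from 2.66 to 10.7 CPM and was at 6.65 and 5.17 CPM in GRmKO mice. The genes of this list moved in both directions, and the part of ATF4 in the rise of *Fgf21* was not tested.

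The list of 9 insulin- and fasting-regulated liver genes had a median log2 change with CORT of -0.72 in GRf/f mice, with 1 up and 4 down, and of -0.03 in GRmKO mice, with 3 up and none down. These are 55.6% and 33.3% of the 9, beside 11.6% and 5.61% of all liver genes, whose medians were 0.00 and 0.05. Under CORT its median between genotypes was 0.59, with 2 genes higher past 2-fold in GRmKO mice, and under vehicle it was -0.19, with 2 lower. *Pck1*, which encodes the gluconeogenic enzyme PEPCK, fell from 2563 to 762 CPM in GRf/f mice and was at 2250 and 1894 CPM in GRmKO mice. *Igfbp1*, a secreted protein that binds insulin-like growth factors and is suppressed by insulin, fell from 37.8 to 13.9 CPM in GRf/f mice and rose from 18.2 to 45.9 CPM in GRmKO mice. *Tat*, tyrosine aminotransferase, fell from 2140 to 773 CPM in GRf/f mice and was at 2373 and 1312 CPM in GRmKO mice. *Igfbp1* thus had CORT changes of opposite sign in the 2 genotypes, as *Mfsd2a* did, although its vehicle levels were in the other order.

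Of the 10 genes that handle lysophosphatidylcholine, the lipid that *Mfsd2a* carries, 1 (*Lpcat2*, an acyltransferase) fell with CORT in each genotype and none was past 2-fold between genotypes. The median log2 changes with CORT were -0.01 and -0.14. In the coenzyme A list of 9 genes, where *Vnn1* acts on a breakdown product, the 1 gene past 2-fold was *Nudt7*, a peroxisomal hydrolase of coenzyme A. It fell from 280 to 20.3 CPM in GRf/f and from 209 to 42.1 CPM in GRmKO mice. *Vnn3*, the relative of *Vnn1*, was at 30.5 to 43.3 CPM.

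Of the 9 other acyl-CoA thioesterases tested, 3 rose in GRf/f mice and 2 in GRmKO mice with CORT and none fell, with medians of 0.70 and 0.26. Besides *Acot3* and *Acot4*, *Acot11* rose from 4.27 to 45.2 CPM in GRf/f mice and from 6.39 to 25.4 CPM in GRmKO mice. Within the *Acot1* cluster, *Acot5* was at 0 to 0.0484 CPM and *Acot6* at 1.17 to 2.22 CPM in liver. The last list, the other carnitine palmitoyltransferases, had 2 genes tested, neither past 2-fold.

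Further list genes past 2-fold with CORT in liver lay outside the naming rule and were named after their values were seen. *Acaa1b* and *Abcd2* were among the 3 genes of the peroxisomal list that fell in GRf/f mice. *Cyp4a32* fell in both genotypes, *Pdk4* rose and *Ppargc1b* fell in GRf/f mice, and *Hilpda* fell in GRmKO mice. Of the amino acid stress genes, *Psat1* rose and *Chac1* fell in GRf/f mice and *Sesn2* rose in GRmKO mice. Of the insulin- and fasting-regulated genes, *G6pc* rose in both genotypes, *Sik1* fell in GRf/f mice and *Irs2* rose in GRmKO mice, from 5.20 to 15.1 CPM, while it was at 15.2 and 9.85 CPM in GRf/f mice.

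The genes whose pattern over the 4 liver libraries was most like that of *Mfsd2a* were found by the root mean square difference of centred log2 levels among 10586 genes with a mean of at least 1 CPM. They were *Fos* at a difference of 0.37, *Hamp2* at 0.40, *Cpsf1* at 0.43, *Rerg* at 0.44 and *Igsf8* at 0.45. *Fos*, a subunit of the AP-1 transcription factor, was at 3.44, 0.683, 3.97 and 5.48 CPM in the order used for *Ehhadh*. *Hamp2*, a relative of the iron hormone hepcidin, was at 13.9, 1.65, 23.4 and 32.9 CPM. Likeness over 4 points is easily met. *Mfsd2a* had the highest mean level of the 6 genes, and by the same measure *Cpt1a* ranked 666 and *Ppara* 920 in likeness to it.

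The other tissues were then compared with liver. *Mfsd2a* was at 0.453 and 0.669 CPM in vehicle- and CORT-treated GRf/f gastrocnemius and at 0.2998 and 0.639 CPM in GRmKO gastrocnemius, levels of 6 to 13 counts whose intervals overlapped. In gonadal WAT it held 0 counts in vehicle-treated GRf/f and CORT-treated GRmKO mice, 7 counts (0.352 CPM) in CORT-treated GRf/f mice and 1 count (0.0507 CPM) in vehicle-treated GRmKO mice. Its order of levels was therefore set by liver, where the lowest library exceeded every library of the other tissues. The opposite CORT changes seen in liver were not detectable at this depth in gastrocnemius. There the difference between genotypes was 0.21 on the log2 scale, with a counting interval of -1.64 to 2.07 that is rough at so few counts.

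**Figure D4:**
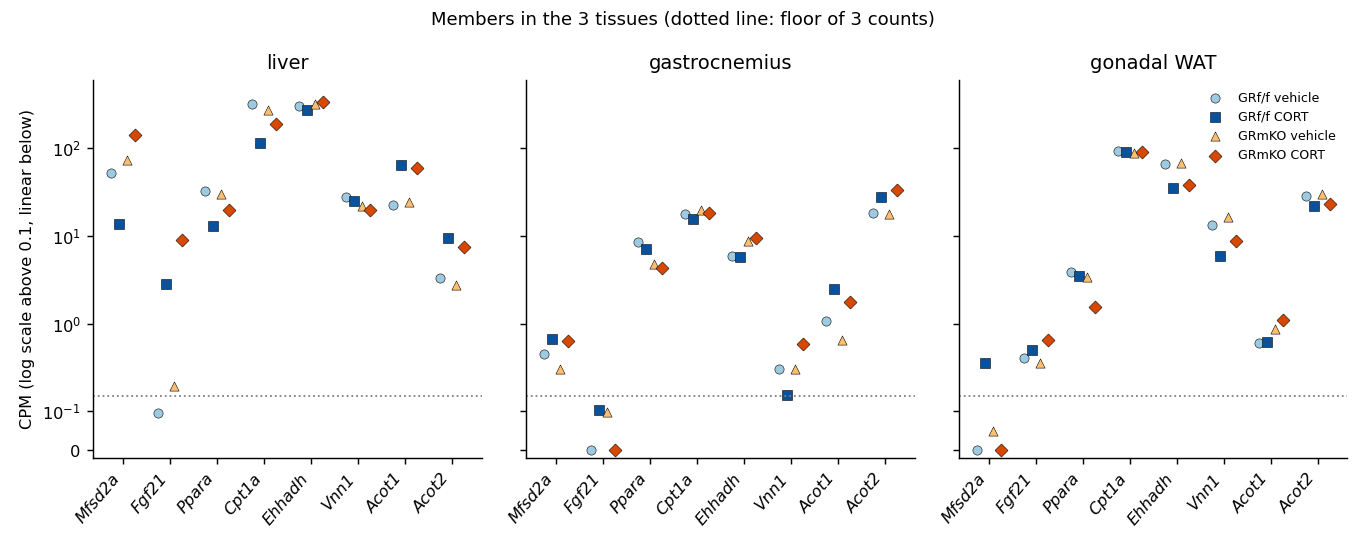
Level of the 8 genes in the 4 libraries of each tissue, in CPM on an axis that is logarithmic above 0.1 and linear below, with the floor of 3 counts dotted. *Mfsd2a* and *Fgf21* are near or below 1 CPM outside liver, *Cpt1a* and *Ehhadh* are lower in gastrocnemius than in gonadal WAT, and *Acot2* is lowest in liver.

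*Fgf21* held 0 to 2 counts in the gastrocnemius libraries, at or under the floor, and 7 to 13 counts in gonadal WAT, at 0.354 to 0.644 CPM with overlapping intervals. Only 7 of the 8 genes were above 0 in all 4 libraries of gastrocnemius, where *Fgf21* was left out, and of gonadal WAT, where *Mfsd2a* was.

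In gastrocnemius 0 of these 7 were past 2-fold in any comparison, while among all 13543 genes 7.97% were with CORT in GRf/f mice, 6.53% with CORT in GRmKO mice, 7.77% between genotypes under vehicle and 9.71% between genotypes under CORT. *Acot2*, here the more abundant of the pair, was at 17.99 and 28.0 CPM in vehicle- and CORT-treated GRf/f mice and at 17.8 and 32.9 CPM in GRmKO mice. The CORT libraries were above the vehicle libraries in both genotypes, by log2 changes of 0.62 and 0.87. *Acot1* was at 1.08 and 2.51 CPM in GRf/f mice and at 0.649 and 1.78 CPM in GRmKO mice, log2 changes of 0.93 and 0.99. With 0.1 CPM added in place of 0.5, *Acot1* is past 2-fold in both genotypes, and with TMM factors *Acot1* and *Acot2* are so in GRmKO mice.

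*Ppara* in gastrocnemius was at 8.50 and 6.998 CPM in vehicle- and CORT-treated GRf/f mice and at 4.72 and 4.24 CPM in GRmKO mice. Both GRmKO libraries were below both GRf/f libraries, by log2 changes of -0.79 under vehicle (counting interval -1.23 to -0.48) and -0.66 under CORT (-1.14 to -0.33). *Ehhadh* ran the other way, at 5.88 and 5.66 CPM in GRf/f mice and 8.75 and 9.49 CPM in GRmKO mice, or 0.54 and 0.70 on the log2 scale. *Cpt1a* was at 15.5 to 19.7 CPM, beside 297 to 359 CPM for *Cpt1b*, and *Vnn1* was at 0.154 to 0.590 CPM. The hepatocyte markers summed to 46.1, 113, 134 and 368 CPM, in which *Cyp2e1*, a gene at 4877 to 5824 CPM in gonadal WAT, made up 39.0, 103, 49.8 and 91.1 CPM. The other 8 summed to 7.10, 9.75, 84.2 and 277 CPM. The 8 adipocyte markers summed to 267, 667, 366 and 524.8 CPM, the 6 macrophage markers to 89.1, 95.8, 347 and 130.4 CPM and the 5 stellate cell and fibroblast markers to 1415, 474, 2093 and 681 CPM in these libraries, in the order used for *Ehhadh*. The part of these markers in the gastrocnemius values of the 8 genes, the higher *Acot1* and *Acot2* with CORT included, was not tested.

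In gonadal WAT 1 of the 7 genes, *Vnn1*, was past 2-fold with CORT in GRf/f mice, where 13.6% of all 14218 genes were. None was in the other comparisons, in which 9.1% of all genes were past 2-fold with CORT in GRmKO mice, 2.22% between genotypes under vehicle and 2.62% between genotypes under CORT. *Vnn1* fell from 13.4 to 5.93 CPM in GRf/f mice, a log2 change of -1.11 (-1.50 to -0.86), and was at 16.5 and 8.71 CPM in GRmKO mice, a change of -0.89. *Ehhadh* was at 66.3 and 34.6 CPM in GRf/f mice and at 67.1 and 38.1 CPM in GRmKO mice, changes of -0.93 and -0.81. For both genes the CORT libraries were below the vehicle libraries in each genotype. With CORT the 8 adipocyte markers, all detected, summed to 26469 against 30773 CPM in GRf/f and 26269 against 32657 CPM in GRmKO mice. These markers went both ways. *Cfd* went from 5933 to 383 CPM with CORT in GRf/f mice and from 5552 to 620 CPM in GRmKO mice. *Adipoq*, *Plin1*, *Fabp4* and *Lipe* were also lower in both genotypes. *Lep* went from 722 to 5587 CPM and from 1290 to 3196 CPM. *Cidec* was also higher in both genotypes, and *Retn* was higher only in GRmKO mice.

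Macrophage markers, 5 of 6 above 0 in all 4 libraries, summed to 1597 CPM with CORT against 615 CPM with vehicle in GRf/f gonadal WAT, and to 1559 against 812 CPM in GRmKO mice. Endothelial markers, 4 of 5 above 0 in all 4 libraries, summed to 216 CPM with CORT against 548 CPM with vehicle in GRf/f mice. In GRmKO mice they summed to 289 against 508 CPM, while *Stab2* among them was higher with CORT in both genotypes. The 3 red blood cell markers summed to 1369 against 2787 CPM in GRf/f mice and to 3573 against 2883 CPM in GRmKO mice. The part of these shifts in the values of *Vnn1* and *Ehhadh* was not tested. *Acot2* was at 28.5 and 21.6 CPM in GRf/f and 29.6 and 23.1 CPM in GRmKO mice, lower with CORT where liver and gastrocnemius had it higher. *Cpt1a* was at 87.4 to 92.9 CPM with overlapping intervals, *Acot1* at 0.595 to 1.09 CPM, and *Ppara* at 3.86, 3.46, 3.37 and 1.53 CPM, lowest in CORT-treated GRmKO mice.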

How the data were processed

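Transcript levels were measured by RNA-seq in 12 libraries, each from pooled RNA of 3 mice. The deposited values are expected counts (estimated counts): the authors quantified 100-base paired reads with Salmon 1.2.1 on GENCODE protein-coding transcripts (build mm10, GRCm38), imported them length-scaled into R 3.5.0, and kept the entry with the largest total for each gene name. Each entry bears 1 transcript identifier, so a value may not cover a whole gene. Columns were divided by the library total (19394572 to 20940660 counts). Counts were rounded to whole numbers for the 95% intervals, Wilson for levels and exact Clopper-Pearson for ratios. The interval of a difference between CORT changes is centred on the value with 0.5 CPM added. Its width comes from the counts alone, so it is rough for genes at low levels. PCR reads carry no molecular identifiers, so intervals and floors cover counting error only.

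Comparisons used the genes with counts in every library of the tissue. With 1 library per group no test was run, and the authors' NOISeq method, which rests on simulated samples, was not used. Python 3.11.15, numpy 2.4.6, pandas 2.3.3, scipy 1.17.1, biopython 1.88 and R 4.3.3 were used, with edgeR 4.0.16 and DESeq2 1.42.0 for scaling factors alone.

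The members and lists were chosen with earlier results of these data known. Other genes were named by rule: *Nr3c1*, up to 3 genes per list in liver with the largest change past 2-fold and a mean of at least 5 CPM, the 5 genes most like *Mfsd2a*, and relatives of members. The alternatives tried were 3 scalings, other added values, a 1.5-fold threshold, the near bound of the interval, the sum of *Acot1* and *Acot2*, and other filters.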

Additional observations from a re-analysis of the deposited data

Results flagged for a closer look

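The following differences stand out because 2 groups moved in opposite directions under the same comparison, with both counting intervals away from 0. With 1 library per group, none of these differences was tested, and each value is on the log2 scale of CPM + 0.5.

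In liver the CORT change of *Mfsd2a* was -1.90 in GRf/f and 0.93 in GRmKO mice, a difference of 2.83. The CORT change of *Ehhadh* in liver was -0.16 and 0.09, a difference of 0.25. The genotype change of *Cpt1a* in liver, GRmKO against GRf/f, was -0.24 under vehicle and 0.74 under CORT, a difference of 0.98.

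Other differences lay between tissues. For *Ppara* under CORT, the genotype change in liver (0.59) exceeded that in gastrocnemius (-0.66) by 1.25 and that in gonadal WAT (-0.96) by 1.55. The CORT change of *Ehhadh* in GRmKO mice was 0.09 in liver and -0.81 in gonadal WAT, 0.90 apart. For *Vnn1*, the liver minus gonadal WAT difference of the genotype change was -0.63 under vehicle and -0.84 under CORT, and the liver minus gastrocnemius difference under CORT was -1.06, resting on 3 counts in 1 gastrocnemius library.

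The CORT change of *Acot2* was above 0 in liver and gastrocnemius and below 0 in gonadal WAT. In GRf/f mice it exceeded the gonadal WAT value by 1.79 in liver and by 1.01 in gastrocnemius, and in GRmKO mice by 1.64 and 1.22. Its genotype change under CORT was lower in liver than in gastrocnemius, with a difference of -0.57.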

How the results depend on the processing

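No paired analysis was possible because each group had 1 library and the libraries carry no replicate numbers. None of the 14 changes or differences of at least 1 on the log2 scale changed sign under any scaling or added value, and 10 of 96 smaller ones did, all near 0. Most counts of genes past 2-fold stayed within 1.5 times their value. In gastrocnemius, the count of the 8 genes with CORT in GRmKO mice, 0 as reported, was 2 with TMM factors, 2 with median-of-ratios factors and 1 without scaling, and that in GRf/f mice was 1 with median-of-ratios factors. These factors moved the median of all genes by up to 0.14 there and up to 0.12 in gonadal WAT, and by at most 0.07 in size in liver. With 0.1 CPM added, 1 gene was past 2-fold in gastrocnemius with CORT in each genotype and between genotypes under CORT, and 1 in gonadal WAT with CORT in GRmKO mice and between genotypes under CORT, all reported as 0.

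At 1.5-fold, the liver counts were 5 with CORT in GRmKO mice and 4 between genotypes under CORT. The gastrocnemius counts were 2 and 2 with CORT in GRf/f and GRmKO mice, 1 between genotypes under vehicle and 3 under CORT. The gonadal WAT counts were 2 and 3 with CORT in GRf/f and GRmKO mice and 1 between genotypes under CORT. Over the 5 PPAR-alpha lists in liver, 16 genes passed 1.5-fold with CORT in GRmKO mice, 5 between genotypes under vehicle and 9 under CORT. Where the near bound of the counting interval had to pass 2-fold, the gonadal WAT count with CORT in GRf/f mice was 0 in place of 1 and the liver count with CORT in GRmKO mice was 2 in place of 3, without *Acot2*. The spread between mice is unknown, and *Fgf21* under vehicle and *Mfsd2a* outside liver rest on 13 counts or fewer.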
